A study of Mus musculus with 18 samples.

Results

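The genes described here are 5 members of the neurexin and neuroligin families, Nrxn2, Nrxn3, Nlgn1, Nlgn2 and Nlgn3, taken from a table of 54446 genes by their symbols. RNA was sequenced at postnatal day 7 from 6 mice of the outbred CD-1 stock, from their neocortex, with 1 library each of layers 5-6 (L5-6), layer 4 (L4) and layers 2-3 (L2-3) from every mouse, 18 libraries in all. All mice had been electroporated in utero at E14.5, a method that drives plasmid DNA into cells lining the ventricle of the embryonic brain. 2 mice received human FOXP2 cDNA (huFOXP2 mice 1 and 2), 1 mouse received mouse Foxp2 cDNA (moFoxp2), and 3 control mice received plasmid without FOXP2 (GFP mice 1, 2 and 3). Gfp cDNA is named in the protocol for the FOXP2 plasmids, and the labels call the controls GFP. Below, "FOXP2 mice" stands for the 3 mice with either FOXP2 cDNA. FOXP2 is a forkhead transcription factor of the brain that is known for its part in speech and vocal learning.

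The design text names the comparison of neocortex that received GFP with neocortex that received human or mouse FOXP2. Layers were cut from 300 µm sagittal sections and pooled for each mouse, so the libraries are of bulk tissue. The labels give GFP-positive cells for L4 and GFP-negative cells for the layers above and below it, and they call both of these infragranular. The promoter of the plasmids is not given in the sources used here. In such bulk tissue, fewer cells of a type and less RNA per cell cannot be told apart.

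Neurexins are presynaptic adhesion proteins, and neuroligins are postsynaptic proteins that bind them across the synaptic cleft. Through their intracellular tails, neurexins reach the release machinery and neuroligins reach the scaffolds that hold neurotransmitter receptors. Nlgn1 is known from excitatory synapses, Nlgn2 from inhibitory synapses and Nlgn3 from both, while neurexins are made as long and short forms from separate promoters and are heavily spliced. The counts used here are per gene, so they do not separate these forms.

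In the mm10 genome, Nrxn2 (ENSMUSG00000033768.16) spans chr19:6418731-6544169 on the plus strand and Nrxn3 (ENSMUSG00000066392.11) spans chr12:88722876-90334935 on the plus strand. Nlgn1 (ENSMUSG00000063887.13) lies on the minus strand at chr3:25426215-26332460, and Nlgn2 (ENSMUSG00000051790.15) on the minus strand at chr11:69823122-69837784. Nlgn3 (ENSMUSG00000031302.16) lies on the plus strand of the X chromosome at chrX:101299168-101325963. Exons of other annotated genes overlap exons of 4 of the 5 genes: Gm14964 and Slc22a12 in Nrxn2, Gm37980 in Nrxn3, A830092H15Rik in Nlgn1 and Gm21986 in Nlgn3. Reads in those overlaps are uncertain, since the use of strand in the counting is not given in the sources used here.

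RefSeq starts (GRCm38.p6) were at hand for 3 of the 5 genes, Nlgn1, Nlgn2 and Nrxn3. The 250 bases upstream of 4 of these starts are shown because the genes differ in level and in how their FOXP2 differences varied between layers. Capitals mark TGTTT, the core of forkhead recognition sequences, or AAACA where it lies on the other strand. The windows are chr3:26153987-26154236 for Nlgn1 and chr11:69837785-69838034 for Nlgn2, both on the minus strand, and chr12:88953140-88953389 and chr12:89812233-89812482 for an upstream and a downstream start of Nrxn3, both on the plus strand.
Nlgn1: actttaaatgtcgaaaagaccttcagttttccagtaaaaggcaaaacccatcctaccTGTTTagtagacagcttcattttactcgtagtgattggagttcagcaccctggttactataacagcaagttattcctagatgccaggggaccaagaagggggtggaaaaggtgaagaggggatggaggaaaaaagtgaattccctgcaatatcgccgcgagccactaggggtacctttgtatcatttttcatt
Nlgn2: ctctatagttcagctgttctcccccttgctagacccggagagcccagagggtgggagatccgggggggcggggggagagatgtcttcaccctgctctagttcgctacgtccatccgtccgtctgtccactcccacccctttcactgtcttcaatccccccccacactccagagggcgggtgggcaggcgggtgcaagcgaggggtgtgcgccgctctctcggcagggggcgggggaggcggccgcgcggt
Nrxn3, upstream start: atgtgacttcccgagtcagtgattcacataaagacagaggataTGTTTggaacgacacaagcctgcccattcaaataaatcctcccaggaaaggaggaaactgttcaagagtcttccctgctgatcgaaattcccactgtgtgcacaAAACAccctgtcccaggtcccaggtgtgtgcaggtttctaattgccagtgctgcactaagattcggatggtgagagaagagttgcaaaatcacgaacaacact
Nrxn3, downstream start: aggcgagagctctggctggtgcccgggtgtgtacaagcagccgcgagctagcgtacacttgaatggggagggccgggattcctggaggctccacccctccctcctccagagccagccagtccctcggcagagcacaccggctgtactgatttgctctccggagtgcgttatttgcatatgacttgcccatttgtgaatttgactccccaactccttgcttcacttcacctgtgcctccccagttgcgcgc
The Nlgn1 window held 1 TGTTT on either strand and 5 CpG dinucleotides, at 43.6% G and C. The Nlgn2 window held 0 TGTTT and 18 CpG at 67.6% G and C. For Nrxn3, the upstream window held 2 TGTTT and 5 CpG, and the downstream window held 0 TGTTT and 12 CpG. Of 32851 upstream windows of the same length in the table, 46.4% held TGTTT on either strand, and the median was 6 CpG. The longer motif TGTTTAC, which contains TGTTT, was in 3.17% of the windows and in none of these 4. The windows of another start of Nlgn1 (chr3:26331910-26332159), nearer the 5′ end of the gene, and of another start of Nrxn3 (chr12:88794254-88794503) held 0 TGTTT each and are not shown. That Nlgn1 window overlaps an annotated exon of the gene. That Nrxn3 window held 2 CpG and lies upstream of both Nrxn3 windows shown.

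Library totals ranged from 10111149 to 23404528 counts. The 5 genes had between 690 and 18485 counts in a library, and all 5 passed the filter on low counts in every comparison. Foxp2, the gene delivered, had 39.7 to 77.9 CPM (counts scaled to the library total after TMM adjustment) in FOXP2 mice against 52.7 to 68.6 CPM in GFP mice in L5-6, where the groups overlapped. In L4 it had 33.4 to 64.9 CPM in FOXP2 mice against 5.42 to 8.61 CPM in GFP mice, and in L2-3 it had 20.3 to 51.5 CPM in FOXP2 mice against 1.76 to 6.62 CPM in GFP mice; in neither of these layers did the groups overlap. Plasmid and endogenous transcripts are not separated in these values. GFP mouse 1 stood apart: its L5-6 library had 4068 CPM summed over 10 oligodendrocyte markers, against 1247 to 2202 CPM in the other 5 mice. Layer markers followed the dissection for the deep layers, since 8 of 8 layer 6 and subplate markers were higher in L5-6 than in L2-3. In L4, 4 of 5 layer 4 markers were higher than in L2-3 and 1 was lower, but 2 of 5 layer 2-3 markers were higher in L4 too. All 8 general neuronal markers were detected in every library.

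Transcripts of Nlgn2 and Nrxn2 were the most abundant of the 5 genes. Divided by the length of their merged exons, levels over 18 libraries averaged 68.1 ± 7.84 CPM per kb for Nlgn2 and 51.2 ± 8.29 for Nrxn2, against 10.8 ± 3.21 for Nrxn3, 8.36 ± 2.27 for Nlgn1 and 7.72 ± 0.95 for Nlgn3 (SD). Nlgn2 was above Nrxn2 in 18 of 18 libraries, and Nrxn2 was above the other 3 genes in 18 of 18. The 3 lower genes lay within each other's spread: Nrxn3 was above Nlgn1 in 17 of 18 libraries, and Nlgn1 was above Nlgn3 in 12 of 18. Merged exons include those of rare isoforms, so this order holds for the gene models used. Unlike the values per kb, the CPM values that follow are not divided by length and are compared only within a gene.

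**Figure D1:**
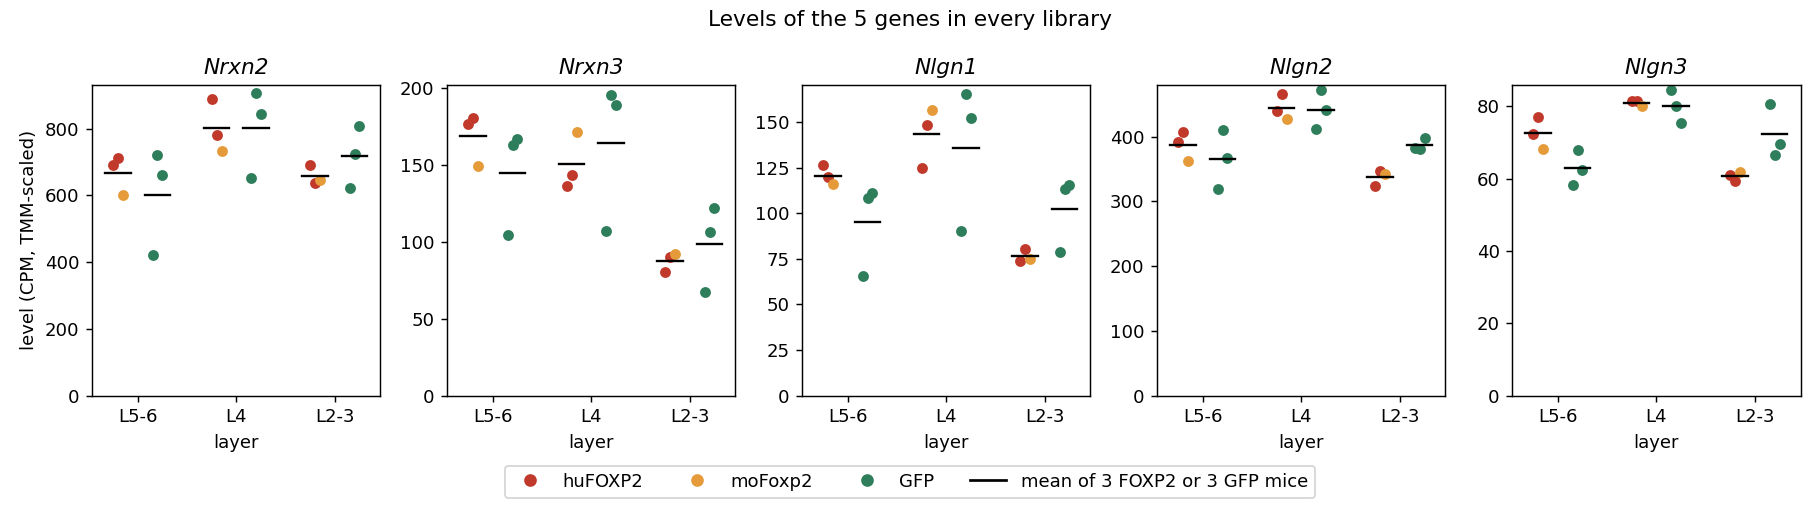
Level of each gene (y axis, CPM) in every library, by layer (x axis). Each point is 1 library, coloured by construct, and black lines are means of the 3 FOXP2 mice (left) or the 3 GFP mice (right) of a layer. Nrxn3 averaged 157 CPM over 6 mice in both L5-6 and L4, against 93.2 CPM in L2-3.

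Within the neuroligins, Nlgn2 took most of the summed level per kb in every library. Its share was 79.7% to 83.2% in L5-6, 78.5% to 81.8% in L4 and 80.8% to 82.9% in L2-3. Nlgn1 took 9.92% ± 1.40 in L5-6, 10.8% ± 1.76 in L4 and 8.66% ± 1.28 in L2-3 (SD, n = 6 mice), ranges that overlapped. Between the 2 neurexins, the share of Nrxn3 was 21.3% ± 0.757 in L5-6, 17.6% ± 2.50 in L4 and 12.8% ± 1.47 in L2-3 (SD, n = 6 mice). Nrxn3 had 19.8% to 21.9% of the pair in L5-6 and 10.7% to 14.2% in L2-3, with no overlap between these layers.

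**Figure D2:**
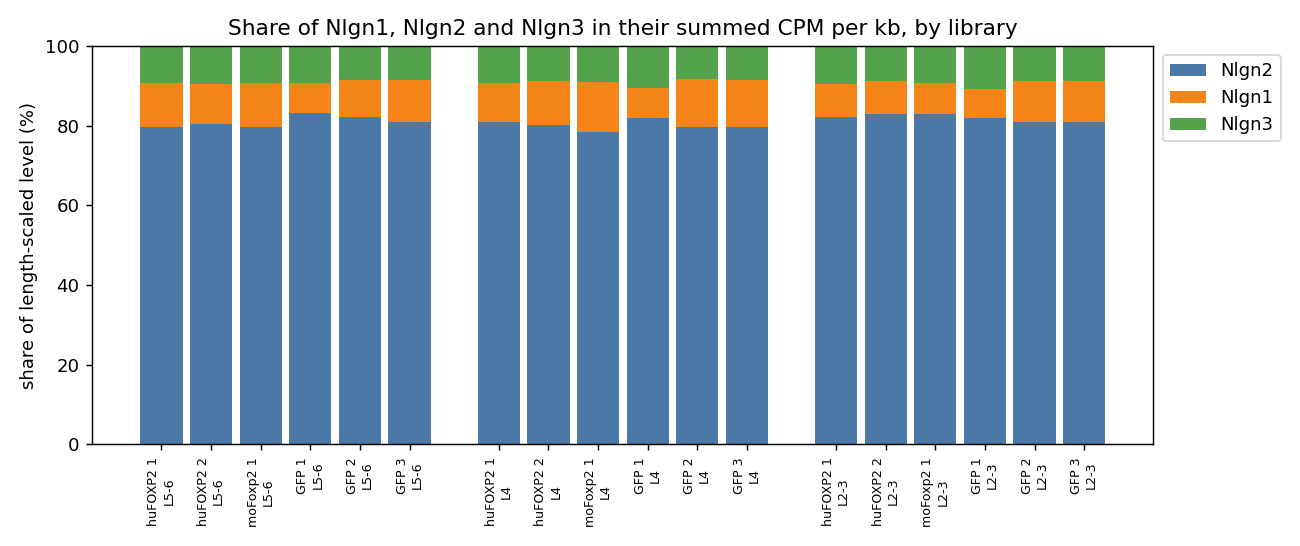
Share of Nlgn2, Nlgn1 and Nlgn3 in their summed level per kb (y axis, %), 1 bar for each library, grouped by layer. Nlgn2 takes 78.5% to 83.2% of every bar.

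The clearest layer difference among the presynaptic genes was that of Nrxn3, whose transcripts were scarcer in L2-3. Nrxn3 had 177 and 180.5 CPM in L5-6 of huFOXP2 mice 1 and 2 and 149 CPM in the moFoxp2 mouse, against 104, 163 and 167 CPM in GFP mice 1, 2 and 3. In L4 it had 137 and 144 CPM in the huFOXP2 mice and 172 CPM in the moFoxp2 mouse, against 107, 196 and 189 CPM in the GFP mice. In L2-3 it had 80.7 and 90.1 CPM in the huFOXP2 mice and 92.3 CPM in the moFoxp2 mouse, against 67.6, 107 and 122 CPM in the GFP mice. Within every one of the 6 mice, L2-3 was the lowest of the 3 layers, and GFP mouse 1 was the lowest mouse in each layer. Nrxn3 was 1.69-fold higher in L5-6 than in L2-3 (log2 0.76 ± 0.071 SE, adjusted p = 1.18e-06, 6 of 6 mice) and 1.70-fold higher in L4 than in L2-3 (log2 0.76 ± 0.071, adjusted p = 1.9e-06, 6 of 6 mice). Between L5-6 and L4 its log2 difference was -0.0074, with a 95% interval of -0.16 to 0.14. Layer comparisons used edgeR's quasi-likelihood test with the mouse as a block and Benjamini-Hochberg adjustment over 15952 genes. Of those genes, 21.6% were higher in L5-6 than in L2-3, 20.5% were higher in L4 than in L2-3 and 19.7% were lower in L5-6 than in L4.

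Nrxn2 peaked in L4. It had 689.6 and 712 CPM in L5-6 of the huFOXP2 mice and 599.9 CPM in the moFoxp2 mouse, against 422, 721 and 662 CPM in GFP mice 1, 2 and 3. In L4 the values were 889.9 and 781 CPM in the huFOXP2 mice and 732 CPM in the moFoxp2 mouse, against 652, 907 and 842 CPM in the GFP mice. L2-3 had 692 and 637 CPM in the huFOXP2 mice and 645 CPM in the moFoxp2 mouse, against 621, 725 and 809 CPM in the GFP mice. L4 was the highest layer in all 6 mice, and the lowest value of all was that of GFP mouse 1 in L5-6. Nrxn2 was 1.17-fold higher in L4 than in L2-3 (log2 0.22 ± 0.066, adjusted p = 0.0141) and lower in L5-6 than in L4 (log2 -0.36 ± 0.066, adjusted p = 0.000847). Without huFOXP2 mouse 1 the first of these missed the threshold (adjusted p = 0.071). The difference of L5-6 from L2-3 was -0.13 on the log2 scale (95% interval -0.27 to 0.0078, adjusted p = 0.118).

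The neuroligins were also highest in L4 on average. Nlgn1 had 126 and 119.7 CPM in L5-6 of the huFOXP2 mice and 116 CPM in the moFoxp2 mouse, against 65.8, 108 and 111 CPM in GFP mice 1, 2 and 3. In L4 its values were 125 and 148 CPM in the huFOXP2 mice and 157 CPM in the moFoxp2 mouse, against 90.04, 165 and 152 CPM in the GFP mice. In L2-3 Nlgn1 had 73.6 and 80.3 CPM in the huFOXP2 mice and 75.1 CPM in the moFoxp2 mouse, against 78.8, 113 and 116 CPM in the GFP mice. L2-3 was the lowest layer of Nlgn1 in the 3 FOXP2 mice, and L5-6 was the lowest in the 3 GFP mice. Over all mice Nlgn1 was 1.57-fold higher in L4 than in L2-3 (log2 0.65 ± 0.064, adjusted p = 3.11e-06, 6 of 6 mice). It was 1.20-fold higher in L5-6 than in L2-3 (log2 0.27 ± 0.064, adjusted p = 0.00361), a mean of FOXP2 mice in which it was higher in 3 of 3 and GFP mice in which it was higher in 0 of 3. From L4, L5-6 differed by -0.38 on the log2 scale (adjusted p = 0.000372, lower in 5 of 6 mice).

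Nlgn2 and Nlgn3 differed less between layers. Nlgn2 had 391 and 408 CPM in L5-6 of the huFOXP2 mice and 363 CPM in the moFoxp2 mouse, against 319.9, 410.3 and 367 CPM in the GFP mice. In L4 it had 439.8 and 466 CPM in the huFOXP2 mice and 428 CPM in the moFoxp2 mouse, against 411, 472 and 441 CPM in the GFP mice. In L2-3 the values were 324 and 347 CPM in the huFOXP2 mice and 342 CPM in the moFoxp2 mouse, against 382, 380.3 and 397 CPM in the GFP mice. Nlgn2 was thus highest in L4 in each mouse, by 1.23-fold over L2-3 (log2 0.30 ± 0.052, adjusted p = 0.000345), and it was lower in L5-6 than in L4 (log2 -0.25 ± 0.052, adjusted p = 0.00191).
Nlgn3 had 72.3 and 77.0 CPM in L5-6 of the huFOXP2 mice and 68.2 CPM in the moFoxp2 mouse, against 58.1, 67.9 and 62.4 CPM in the GFP mice. In L4 it had 81.5 and 81.6 CPM in the huFOXP2 mice and 79.95 CPM in the moFoxp2 mouse, against 84.6, 80.2 and 75.3 CPM in the GFP mice. In L2-3 Nlgn3 had 61.1 and 59.3 CPM in the huFOXP2 mice and 61.95 CPM in the moFoxp2 mouse, against 80.6, 66.6 and 69.6 CPM in the GFP mice. L4 was again the highest layer in each mouse, by 1.22-fold over L2-3 (log2 0.29 ± 0.060, adjusted p = 0.0015), and Nlgn3 was lower in L5-6 than in L4 (log2 -0.26 ± 0.060, adjusted p = 0.00355). Between L5-6 and L2-3 the log2 difference was 0.054 for Nlgn2 (95% interval -0.056 to 0.17) and 0.028 for Nlgn3 (-0.10 to 0.16).

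**Figure D3:**
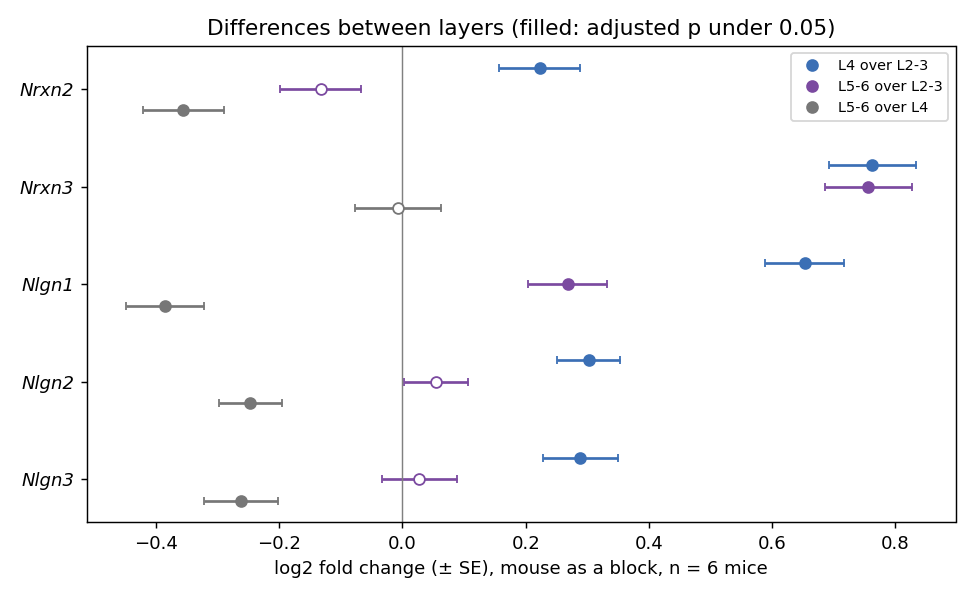
Log2 fold change between layers for each gene (x axis, ± SE, 6 mice, mouse as a block). Filled points passed an adjusted p of 0.05; the L4 over L2-3 values are all above 0, from 0.22 in Nrxn2 to 0.76 in Nrxn3.

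In all, 5 of 5 genes were higher in L4 than in L2-3, 2 of 5 were higher in L5-6 than in L2-3, and 4 of 5 were lower in L5-6 than in L4. The 5 genes were higher in L4 than in L2-3 in 6 of 6 mice, as were 17.2% of all genes. Nrxn3 alone of the 5 was higher in L5-6 than in L2-3 in 6 of 6 mice (13.6% of all genes), and Nrxn2, Nlgn2 and Nlgn3 were lower in L5-6 than in L4 in 6 of 6 (17.6%). Their median log2 difference was 0.30 in L4 against L2-3, where the median of all tested genes was 0.035. Cell content also differed between these samples. General neuronal markers were higher in L4 than in L2-3 in 6 of 8 genes (median log2 0.50), and 8 of 8 meningeal markers were at a lower level in L4 (median log2 -4.66). Relative to the summed level of the 8 general neuronal markers, log2 ratios of L4 over L2-3 were 0.356 to 0.629 for Nrxn3 over 6 mice. For Nlgn1 they were 0.046 to 0.605. The relative ratios lay on both sides of 0 for Nrxn2 (-0.272 to 0.079), Nlgn2 (-0.131 to 0.111) and Nlgn3 (-0.0988 to 0.144). The part of cell content in the layer differences of the 5 genes was not tested.

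The partners of the 2 families differed between layers in both directions. Of 18 neurexin ligands and partners, 7 were higher and 5 lower in L5-6 than in L2-3, where 21.6% of all genes were higher and 21.9% lower. Nxph3, a neurexophilin that binds neurexins from outside the cell, had 77.3 ± 23.1 CPM in L5-6 against 2.63 ± 2.19 CPM in L2-3 (SD, n = 6 mice; log2 4.92 ± 0.27, adjusted p = 8.64e-09). Nxph4, of the same family and also among the layer 6 markers used, had 18.9 ± 5.46 CPM in L5-6 against 3.41 ± 1.48 CPM in L2-3 (log2 2.48, adjusted p = 9.75e-07). Igsf21, a binding partner of neurexin 2, had 141 ± 31.7 CPM in L5-6 against 30.7 ± 7.30 CPM in L2-3 (log2 2.20, adjusted p = 1.29e-08). In the other direction, Lrrtm4, a postsynaptic ligand of neurexins, fell by 0.83 on the log2 scale in L5-6, and Cbln4 and Cbln2, secreted bridges from neurexins to postsynaptic receptors, fell by 0.59 and 0.49.

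The inhibitors of neuroligins went opposite ways. Mdga1, which binds neuroligins and blocks neurexin binding, had 95.3 ± 28.7 CPM in L5-6 against 383 ± 91.0 CPM in L2-3 (SD, n = 6 mice; log2 -2.0 ± 0.15, adjusted p = 1.57e-07). Its relative Mdga2 had 64.7 ± 4.06 CPM in L5-6 against 42.6 ± 8.66 CPM in L2-3 (log2 0.63, adjusted p = 6.79e-05). Of the 3 RNA-binding proteins that control neurexin splicing, Khdrbs3 was higher in L5-6 than in L2-3 (log2 0.63, adjusted p = 1.7e-06), and Khdrbs2 (log2 -0.76) and Khdrbs1 (log2 -0.29) were lower. In L4 against L2-3, where 20.5% of all genes were higher, none of the scaffold genes passed as lower. Those that passed as higher were 4 of 4 inhibitory postsynaptic, 9 of 13 excitatory postsynaptic and 4 of 6 presynaptic scaffold genes. Among them were Gphn (log2 0.28), which anchors inhibitory receptors, Dlgap2 (log2 0.52) and Dlg3 (log2 0.35) of excitatory synapses, and Lin7a (log2 0.80), a partner of the neurexin-binding kinase Cask.

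Within a layer, none of the 5 genes passed the test between FOXP2 and GFP mice. In L5-6 all 5 log2 differences were above 0 and in L2-3 all 5 were below 0. edgeR called 0 of 5 genes in each layer, against 3 of 15330 genes (0.0196%) in L5-6, 4 of 14544 (0.0275%) in L4 and 11 of 15241 (0.0722%) in L2-3. DESeq2 also called 0 of the 5 in each layer, although it called 56 genes in L5-6, 32 in L4 and 755 in L2-3. At an unadjusted p under 0.05, the counts among the 5 genes were 0 in L5-6, 0 in L4 and 2 in L2-3, against 6.17%, 3.14% and 15.8% of all genes in L5-6, L4 and L2-3.

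The largest of these differences was that of Nlgn1 in L2-3, with a mean of 76.3 ± 3.48 CPM over FOXP2 mice and 102 ± 20.6 CPM over GFP mice (SD, n = 3 each). Its log2 fold change was -0.42 ± 0.14 (95% interval -0.75 to -0.089, adjusted p = 0.212), and the groups overlapped through GFP mouse 1. Without that mouse it was -0.57 with an adjusted p of 0.0439, in a fit that called 195 genes in all. Leaving out each mouse in turn gave adjusted p-values up to 0.573. In L5-6, Nlgn1 had a mean of 121 ± 5.36 CPM over FOXP2 mice and 95.1 ± 25.4 CPM over GFP mice, a log2 difference of 0.33 ± 0.18 (95% interval -0.081 to 0.75, adjusted p = 0.713). Without GFP mouse 1 the log2 difference was 0.14. In L4 the 95% interval of the Nlgn1 difference was -0.38 to 0.52.

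In L5-6, Nlgn3 had a mean of 72.5 ± 4.41 CPM over FOXP2 mice and 62.8 ± 4.91 CPM over GFP mice (log2 0.20 ± 0.094, adjusted p = 0.713). In L2-3 its means were 60.8 ± 1.36 CPM over FOXP2 mice and 72.3 ± 7.38 CPM over GFP mice (SD, n = 3 each; log2 -0.25 ± 0.11, adjusted p = 0.323). The 2 groups did not overlap in either layer. Nlgn2 in L2-3 had 337 ± 11.95 CPM over FOXP2 mice and 387 ± 9.33 CPM over GFP mice, also without overlap (log2 -0.19 ± 0.084, 95% interval -0.39 to -0.0017, adjusted p = 0.311). Nlgn2 and Nlgn3 were thus 2 of 5 genes lower without overlap in L2-3, where 8.98% of all genes were, and Nlgn1 and Nlgn3 were 2 of 5 higher without overlap in L5-6, where 6.71% were. In L4 all 5 genes overlapped, as did all but 7.69% of genes. The 95% intervals of the neurexins all included 0: Nrxn3 ran from -0.19 to 0.62 in L5-6 and from -0.60 to 0.27 in L2-3, and Nrxn2 from -0.30 to 0.58 in L5-6 and from -0.37 to 0.12 in L2-3.

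**Figure D4:**
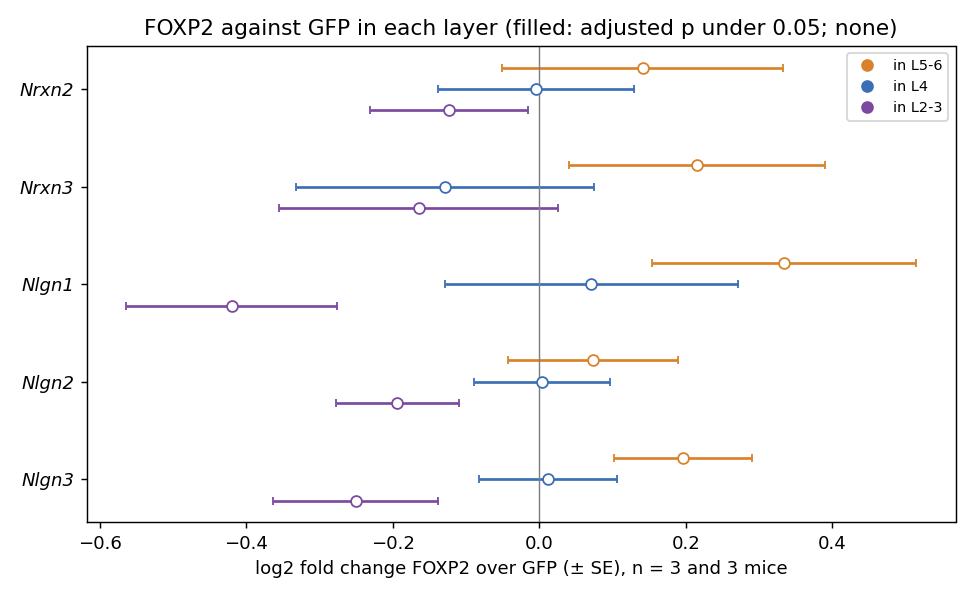
Log2 fold change of FOXP2 over GFP mice for each gene (x axis, ± SE, 3 mice each), 1 point per layer. Open points did not pass an adjusted p of 0.05; the L5-6 points lie at 0.074 to 0.33 and the L2-3 points at -0.42 to -0.12.

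Cell content differed between FOXP2 and GFP mice too. The summed level of 8 neuronal markers was 9133 to 9888 CPM in FOXP2 mice against 6133 to 9675 CPM in GFP mice in L5-6, 9226 to 10187 CPM in FOXP2 mice against 8742 to 10585 CPM in GFP mice in L4, and 7138 to 7641 CPM in FOXP2 mice against 7894 to 8936 CPM in GFP mice in L2-3. In L2-3 the groups did not overlap, and 8 meningeal markers summed to 1430.2 to 2124 CPM in FOXP2 mice against 397 to 1235 CPM in GFP mice. A fit with the neuronal level as a term gave L2-3 log2 differences of 0.16 for Nlgn1, 0.047 for Nlgn2 and 0.77 for Nrxn3. None of these passed the threshold, and the differences of Nrxn2 and Nlgn3 stayed below 0. The term in this fit was the mean log2 level of the 8 markers, not their sum. Since the sum did not overlap between the groups, the fit is taken to separate neuronal level poorly from FOXP2. Whether the mean overlapped was not examined. Classes of neurons went both ways in L2-3, with none of the markers called. Foxp2, the gene delivered, is among the layer 6 and subplate markers. FOXP2 over GFP was above 0 in 10 of 10 interneuron markers (median log2 0.45) and 6 of 8 layer 6 and subplate markers (0.50), and below 0 in 4 of 5 layer 2-3 markers (-0.44) and 4 of 5 layer 4 markers (-0.63). The layer 2-3 markers summed to 626 to 668 CPM in FOXP2 mice against 807 to 933 CPM in GFP mice, and the layer 4 markers to 92.5 to 100.4 CPM in FOXP2 mice against 159.8 to 278 CPM in GFP mice, both without overlap. The part of the layer and meningeal markers in these differences was not tested.

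Of 46 genes in the 6 lists of partners, inhibitors, scaffolds and splicing factors, edgeR called 0 in each layer. At an unadjusted p under 0.05 there were 5 in L5-6, 4 in L4 and 10 in L2-3, against 6.17%, 3.14% and 15.8% of all genes. DESeq2 called 0, 2 and 3 of the partner genes in those layers, beside 56, 32 and 755 genes in all. The smallest p among the ligands and partners was that of Igsf21 in L4, which had 36.8 and 32.4 CPM in the huFOXP2 mice and 32.5 CPM in the moFoxp2 mouse, against 50.2, 60.6 and 59.7 CPM in GFP mice 1, 2 and 3. The groups did not overlap. The log2 difference of -0.75 missed the threshold in edgeR (adjusted p = 0.214) but not in DESeq2 (adjusted p = 0.000153). With GFP mouse 1 left out, edgeR gave an adjusted p of 0.0465. Its adjusted p was 0.502 with GFP mouse 2 left out and 0.457 with GFP mouse 3 left out. It was 0.531 with the moFoxp2 mouse left out, and 0.453 and 0.811 with huFOXP2 mouse 1 or 2 left out. Nxph3, picked after its values were seen, had 1.47 and 1.31 CPM in L4 of the huFOXP2 mice and 2.9 CPM in the moFoxp2 mouse. The GFP mice had 10.5, 6.58 and 6.61 CPM (log2 -2.08, adjusted p = 0.333 in edgeR and 3.26e-05 in DESeq2). Over all mice both genes were higher in L5-6 than in L4 (log2 1.66 for Igsf21 and 4.32 for Nxph3). In L4, FOXP2 over GFP was below 0 in 5 of 6 layer 5 markers (median log2 -0.565). It was also below 0 in 6 of 8 layer 6 and subplate markers (-0.537), with 1 called above 0. The part of these markers in the differences of Igsf21 and Nxph3 was not tested. In L2-3 the smallest p among the ligands was that of Lrrtm1 (log2 -0.35, adjusted p = 0.141), among presynaptic scaffold genes that of Lin7a (log2 -0.80, adjusted p = 0.106) and among excitatory ones that of Magi2 (log2 -0.29, adjusted p = 0.19).

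The FOXP2 differences were then compared between layers within the same mice. Nlgn1 differed most: its log2 ratio of L5-6 over L2-3 was 0.78 and 0.58 in huFOXP2 mice 1 and 2 and 0.62 in the moFoxp2 mouse, against -0.26, -0.062 and -0.058 in GFP mice 1, 2 and 3. L5-6 was the higher layer in all 3 FOXP2 mice and the lower layer in all 3 GFP mice. The FOXP2 difference in L5-6 exceeded that in L2-3 by 0.78 ± 0.13 on the log2 scale (95% interval 0.51 to 1.05, adjusted p = 0.00912, edgeR with the mouse as a block). For Nlgn3 the ratios were 0.24 and 0.38 in the huFOXP2 mice and 0.14 in the moFoxp2 mouse, against -0.47, 0.027 and -0.16 in the GFP mice, and the groups did not overlap. The FOXP2 difference of Nlgn3 in L5-6 exceeded that in L2-3 by 0.44 ± 0.12 (95% interval 0.18 to 0.70, adjusted p = 0.0279).

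The other 3 genes had differences in the same direction that missed the threshold. Nrxn3 had log2 ratios of 1.13 and 1.0 in the huFOXP2 mice and 0.69 in the moFoxp2 mouse, against 0.62, 0.61 and 0.45 in the GFP mice, so that it too did not overlap (difference 0.38, adjusted p = 0.0784). For Nlgn2 the difference was 0.28 (95% interval 0.055 to 0.50, adjusted p = 0.0811) and for Nrxn2 it was 0.29 (0.0099 to 0.57, adjusted p = 0.14). The 2 calls among 5 genes stand beside 6.75% of 15952 genes called in that direction, and the 3 genes without overlap stand beside 16.6% of genes with FOXP2 ratios all above the GFP ratios.

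**Figure D5:**
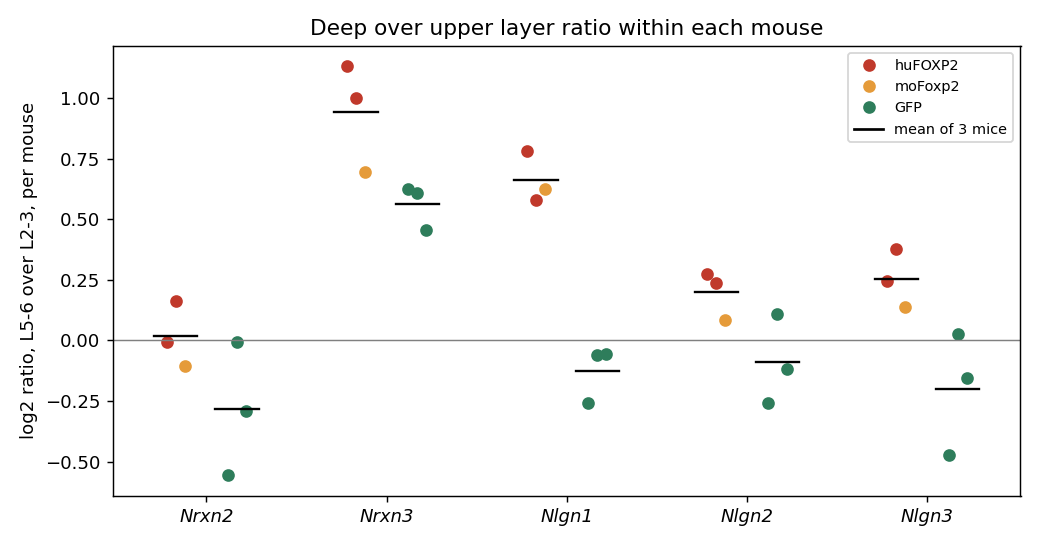
Log2 ratio of L5-6 over L2-3 within each mouse (y axis) for the 5 genes (x axis), with FOXP2 mice to the left of GFP mice and black lines for means of 3 mice. For Nlgn1 the FOXP2 mice lie at 0.58 to 0.78 and the GFP mice at -0.26 to -0.058.

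The call of Nlgn1 was lost without huFOXP2 mouse 1 (0.71, adjusted p = 0.0625), and that of Nlgn3 was lost without any one of 5 mice, at adjusted p-values up to 0.121. Without the mouse as a block both calls were lost (adjusted p = 0.186 for Nlgn1 and 0.096 for Nlgn3). The log2 ratio of the summed neuronal markers, L5-6 over L2-3, was 0.47 and 0.36 in the huFOXP2 mice and 0.30 in the moFoxp2 mouse, against -0.36, 0.12 and 0.016 in the GFP mice. Relative to that sum, the ratio of Nlgn1 was 0.31, 0.22 and 0.33 in the FOXP2 mice against 0.11, -0.18 and -0.073 in the GFP mice, without overlap. The same relative ratio of Nlgn3 overlapped, at -0.23, 0.017 and -0.16 in FOXP2 mice against -0.11, -0.088 and -0.17 in GFP mice. How many of all genes lack overlap on this relative scale was not counted. On the plain ratios, 16.6% of genes had FOXP2 values all above the GFP values. Nlgn1 had already been called in this contrast, so its lack of overlap is a description. With the neuronal level as a term in the fit, the difference was 0.53 for Nlgn1 (adjusted p = 0.314) and 0.072 for Nlgn3 (adjusted p = 0.861), and 0 of 15952 genes were called.

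Synaptic partners shared this direction in part. In the difference of L5-6 from L2-3, 13 of 13 excitatory postsynaptic scaffold genes had values above 0, and 5 passed, among them Dlg3 (log2 0.58, adjusted p = 0.0147), Dlg2 (log2 0.52, adjusted p = 0.0116) and Shank2 (log2 0.47, adjusted p = 0.0344), which organise receptors at excitatory synapses. Of 4 inhibitory scaffold genes 2 passed, among them Gphn (log2 0.48, adjusted p = 0.0183). Of 18 neurexin ligands and partners 1 passed, Lrrtm1, a postsynaptic neurexin ligand, which had 75.5 ± 7.92 CPM in L5-6 of FOXP2 mice against 51.7 ± 13.9 CPM in GFP mice, and 71.2 ± 4.29 CPM in L2-3 of FOXP2 mice against 90.9 ± 4.17 CPM in GFP mice (SD, n = 3 each; difference 0.91, adjusted p = 0.00989). Mdga1 (1.03, adjusted p = 0.0333) and Lin7a (1.32, adjusted p = 0.00989) also passed. Over the same contrast 8 of 8 general neuronal markers were above 0 (median log2 0.58, 4 called), and 8 of 8 endothelial and 10 of 10 oligodendrocyte markers were below 0. Layer markers also differed: 5 of 5 layer 2-3 markers passed above 0 (median log2 0.92), 5 of 5 layer 4 markers were above 0 (0.90, 2 called), and 7 of 8 layer 6 and subplate markers were below 0 (-0.85, 1 called). Foxp2, the gene delivered, is among these layer 6 and subplate markers. The part of the marker differences in the calls of Nlgn1, Nlgn3 and the partners was not tested. Of the 46 partner genes, 10 were called in all, each above 0, beside 6.75% of 15952 genes called in that direction. The count was 0 without huFOXP2 mouse 1, 0 without the mouse as a block and 0 with the neuronal level as a term. It was 6 to 15 without one of the other mice.

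Between L4 and L2-3 the FOXP2 differences of the 5 genes did not pass. Nlgn1 came nearest, with log2 ratios of L4 over L2-3 of 0.76 and 0.89 in the huFOXP2 mice and 1.06 in the moFoxp2 mouse, against 0.19, 0.55 and 0.39 in the GFP mice. These did not overlap, nor did the ratios of Nlgn2 and Nlgn3 (17% of all genes had FOXP2 ratios all above the GFP ratios), and the Nlgn1 difference was 0.51 ± 0.13 (95% interval 0.23 to 0.78, adjusted p = 0.0824). edgeR called 0 of 15952 genes (0%) there, with 1 of the 5 genes and 2831 in all at an unadjusted p under 0.05, while DESeq2 called 527 genes, Nlgn1 among them (adjusted p = 0.0171). Between L5-6 and L4, 0 of 5 genes and 1 of 15952 genes (0.00627%) were called by edgeR. At an unadjusted p under 0.05 there were 1 of the 5, Nrxn3 (difference 0.34, adjusted p = 0.803), and 892 of the 15952 genes. DESeq2 called 11 genes and 0 of the 5. All these comparisons share the same 6 mice.

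Human and mouse FOXP2 were compared last, with 2 mice against 1, the lone moFoxp2 library being assumed to vary like the others. The edgeR fit over 18 libraries had no mouse term, so layers of 1 mouse were taken as independent although they share the animal. The number of independent values behind its intervals is thus overstated. edgeR called 0 of 5 genes in L5-6, L4 and L2-3, beside 0 genes (0%), 1 gene (0.00627%) and 2 genes (0.0125%) of 15952, and 0 of the 5 had an unadjusted p under 0.05. A limma voom fit also called 0 of the 5. The intervals were wide: for Nrxn3 in L4 the log2 difference was -0.31, with a 95% interval of -1.08 to 0.46, and for Nlgn1 in L2-3 it was 0.046 (-0.70 to 0.80). Nlgn3 was the narrowest, at 0.010 (-0.31 to 0.34) in L4.

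Across the 18 libraries the log2 levels of the 5 genes moved together to different degrees. Pearson's r was highest between Nlgn1 and Nlgn2 (0.86), Nlgn2 and Nlgn3 (0.86) and Nrxn3 and Nlgn1 (0.84), and lowest between Nrxn3 and Nlgn3 (0.35). The libraries share mice and layers, so this is a description. Among 9987 genes with a mean of at least 10 CPM, the levels most like those of Nlgn1 were those of Plcb1 (r = 0.99) and Kcnma1 (0.98). For Nrxn3 they were Camk1d and Elavl2 (both 0.96) and Adcy1 (0.96), and for Nrxn2 they were Usp5, Rab11fip5 and Nol6 (0.96 each). Nlgn2 was most like Ambra1 (0.96), Brsk2 and Mark2 (0.95 each), and Nlgn3 was most like Ccdc136 (0.93), Parp6 and Stx1a (0.92 each).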

How the data were processed

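The values deposited by the authors are whole-number read counts for each gene and library, without normalization. The submitters' processing notes name STAR, HTSeq and mm10. No version, gene model or strand setting is given in the sources used here. Of 54446 identifiers, 53229 matched GENCODE M21 with their version and 54409 without it; positions and merged exon lengths come from it. Samples were grouped by title, and libraries of a group with 1 replicate number were taken as 1 mouse, since the labels state pooling per mouse. Deviations from group means correlated at 0.29 to 0.71 within a mouse (above 0.1 in 18 of 18 pairs). The labels do not say whether mice were littermates, so p-values may not extend beyond these mice. Tests of FOXP2 against GFP within a layer judged differences against the spread between mice. Fits with the mouse as a block judged them against how layer differences varied from mouse to mouse.

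Counts were filtered with filterByExpr (minimum count 10, minimum total 15), scaled by TMM and tested in edgeR 4.0.16 (R 4.3.3, glmQLFit and glmQLFTest), with Benjamini-Hochberg adjustment over all genes tested and a threshold of 0.05. Layers, and FOXP2 differences between layers, were tested over 18 libraries with mouse as a block; an all-mice layer difference is the mean of the FOXP2 and GFP differences. DESeq2 1.42.0, limma 3.58.1 voom, RLE factors, no filter, no block, a neuronal term and leaving out each mouse were tried. Fits were tested on simulated data. Of genes changed by 0.5 on the log2 scale, 22% were recovered for FOXP2 against GFP in L4. Recovery was 19% for the FOXP2 effect in L5-6 minus L2-3 and 92% for L5-6 against L2-3. For changes of 1 on that scale it was 92%, 87% and 100% in the same order. False calls were 8.8%, 5.36% and 4.48% of calls. Genes were simulated independently, with no mouse effect, no other layer effect and no shared change in cell content. These rates therefore need not hold for the real data. Recovery was lowest between huFOXP2 and moFoxp2 mice. Replicate libraries differed by a chi-square per degree of freedom of 8.89 to 54.3 over 12 pairs, so none was counted as a copy. CPM is scaled by TMM. Promoter windows are RefSeq's, with GRCm38.p6 coordinates.

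The 5 genes and all gene lists were chosen with earlier results of these data known. All 5 are named; of each list, up to 3 genes per direction of largest fold past the threshold, or the gene of smallest p; and the 3 genes most correlated with each. Some genes that this rule names are not reported here.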

Additional observations from a re-analysis of the deposited data

Results flagged for a closer look

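The FOXP2 difference of Nlgn1 was not the same in L5-6 and L2-3. The difference between the layers was 0.779 on the log2 scale (adjusted p = 0.00912, edgeR with the mouse as a block), with Nlgn1 higher in L5-6 than in L2-3 in 3 of 3 FOXP2 mice and in 0 of 3 GFP mice. For Nlgn3 it was 0.441 (adjusted p = 0.0279), with L5-6 above L2-3 in 3 of 3 FOXP2 mice and 1 of 3 GFP mice. The summed neuronal markers were also higher in L5-6 than in L2-3 in 3 of 3 FOXP2 mice, and in 2 of 3 GFP mice. With these markers as a term in the fit, which left 0 of 15952 genes called, the difference was 0.53 for Nlgn1 (adjusted p = 0.314) and 0.072 for Nlgn3 (adjusted p = 0.861). Over the same contrast 5 of 5 layer 2-3 markers passed in the same direction.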

How the results depend on the processing

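Over 630 values of the 5 genes under other settings, 563 kept their direction and side of the threshold, 45 changed sign, 14 lost and 8 gained a call; the causes were not tested. All 45 sign changes were of values not called.

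Leaving out each mouse in turn, genes called between FOXP2 and GFP mice ranged from 2 to 4 in L5-6, 3 to 6 in L4 and 3 to 195 in L2-3 (195 without GFP mouse 1), with 0 to 1 of the 5 genes in L2-3. For differences of the FOXP2 effect they ranged from 1 (without huFOXP2 mouse 1) to 3414 (without GFP mouse 2) in L5-6 minus L2-3, with 0 to 4 of the 5 genes, from 0 to 14 in L4 minus L2-3, and from 0 to 2 in L5-6 minus L4. Between huFOXP2 and moFoxp2 mice they ranged from 0 to 4 in L5-6, 0 to 4 in L4 and 0 to 39 in L2-3. Log2 differences that changed sign without a mouse ranged as follows. FOXP2 against GFP in L5-6: Nrxn2 -0.051 to 0.29, Nlgn2 -0.0041 to 0.17. FOXP2 against GFP in L4: Nrxn2 -0.12 to 0.097, Nrxn3 -0.35 to 0.019, Nlgn1 -0.15 to 0.24, Nlgn2 -0.036 to 0.056, Nlgn3 -0.040 to 0.063. FOXP2 against GFP in L2-3: Nrxn3 -0.37 to 0.0086. L5-6 over L4: Nrxn3 -0.062 to 0.084. L5-6 over L2-3: Nlgn3 -0.020 to 0.075. FOXP2 effect in L4 minus L2-3: Nrxn3 -0.034 to 0.14. huFOXP2 against moFoxp2 in L2-3: Nlgn1 -0.033 to 0.12, Nlgn2 -0.081 to 0.048.

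With no filter, FOXP2 against GFP called 323 genes in L5-6, 189 in L4 and 865 in L2-3, FOXP2 effects 1326 in L4 minus L2-3 (1 of the 5 genes) and 255 in L5-6 minus L4, and huFOXP2 against moFoxp2 54, 80 and 230 in L5-6, L4 and L2-3; Nrxn2 became 0.0071 in L4 (FOXP2 over GFP) and Nrxn3 0.0031 in L5-6 over L4. DESeq2 called 56, 32 and 755 genes between FOXP2 and GFP in L5-6, L4 and L2-3, 527 in L4 minus L2-3 (1 of the 5) and 11 in L5-6 minus L4, with Nrxn3 at 0.0011 in L5-6 over L4. RLE factors gave 4 genes in L2-3, 1 in L4 minus L2-3 and Nrxn3 0.0011 in L5-6 over L4. Fitting FOXP2 against GFP within all 18 libraries gave 8 genes in L5-6 and 4 in L2-3, and voom gave 0 in L4 and 0 in L2-3 between huFOXP2 and moFoxp2. Without length scaling, neuroligin shares were 19.1% for Nlgn1, 68.4% for Nlgn2 and 12.5% for Nlgn3. With library totals alone Nlgn3 had 78.4 CPM in L4 and 62.8 CPM in L2-3 of FOXP2 mice.

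The neuronal level as a term gave 0 genes between FOXP2 and GFP in L2-3, 96 in L4 minus L2-3, and 0 in L5-6 minus L2-3 (0 of the 5 genes) and L5-6 minus L4. Under it FOXP2 against GFP in L5-6 became -0.15 in Nrxn2, -0.059 in Nrxn3 and -0.053 in Nlgn2; in L4 0.058 in Nrxn2, 0.18 in Nrxn3 and -0.028 in Nlgn3; and in L2-3 0.77 in Nrxn3, 0.16 in Nlgn1 and 0.047 in Nlgn2. FOXP2 effects in L5-6 minus L2-3 became -0.052 in Nrxn2; in L4 minus L2-3 -0.0028 in Nrxn2 and -0.014 in Nrxn3; and in L5-6 minus L4 -0.050 in Nrxn2, -0.089 in Nlgn2 and -0.051 in Nlgn3.

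With no replicate block for the mouse, the layer fit called 4032 genes in L5-6 over L4, 1 of the 5 genes in L5-6 over L2-3, and 0 genes and 0 of the 5 genes for the FOXP2 effect in L5-6 minus L2-3, and 0 in L5-6 minus L4. Adjusted p without it was 0.186 for Nlgn1 and 0.096 for Nlgn3 in L5-6 minus L2-3, 0.18 for Nlgn1 in L5-6 over L2-3, 0.0635 for Nlgn1 in L5-6 over L4 and 0.162 for Nrxn2 in L4 over L2-3; these 5 calls were lost and no other. Mice of huFOXP2 and GFP that share replicate number 1 or 2 share only a number (deviations correlated at -0.29 to 0.15, above 0.1 in 2 of 6 pairs). A replicate block on these numbers called 45 genes in L5-6 and 69 in L4, and none of the 5; it gave Nrxn2 0.10 and Nlgn3 -0.027 in L4 and Nrxn3 0.0033 in L2-3. The same 4 libraries without the block gave 7 genes in L2-3, and 0.088 for Nrxn2 and -0.028 for Nlgn3 in L4.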
